A study of Homo sapiens with 2 samples.

Results

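Heat shock proteins and their J-domain partners were taken as the genes whose symbol is HSP followed by A, B, D, E or H, or DNAJ followed by A, B or C and a number. The rule used the symbols and no measured value, and it found 72 of the 19607 genes in the table. They comprise 12 HSP70 genes, 3 HSP110 genes, 7 small HSP genes, the HSP60 and HSP10 genes of the mitochondrial chaperonin, and 44 J-domain genes (4 DNAJA, 12 DNAJB and 28 DNAJC). The other 4 are the readthrough gene DNAJC25-GNG10 and 3 genes that carry a matching symbol without being chaperones of these classes (HSPBP1, HSPBAP1 and HSPB11). HSP90 symbols have a digit after HSP and do not match the rule, so HSP90AA1, HSP90AB1, HSP90B1 and TRAP1 are described as companions. CWR22rv1 cells, which derive from a human prostate carcinoma, gave 1 RNA library of control cells, labelled wild type, and 1 library of Akt1/2 knockout cells (Akt1/2 DKO). The knockout cells had received CRISPR/Cas9 plasmids against AKT1 and AKT2 and were grown from single cells after puromycin. Which clone was sequenced is not given, and a property of 1 clone and an effect of the knockout cannot be told apart.

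Chaperones of the HSP70 class bind exposed hydrophobic stretches of unfolded proteins and release them in a cycle driven by ATP. J-domain proteins (HSP40) deliver clients and start ATP hydrolysis, HSP110 proteins exchange the nucleotide, small HSPs hold unfolded proteins in oligomers, and HSP90 takes over late folding of kinases and steroid receptors. Many cytosolic members are induced by the heat shock factor HSF1, while those of the endoplasmic reticulum (ER) are induced by the unfolded protein response.

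The libraries held 9970825 reads (control) and 10718654 reads (Akt1/2 DKO), counted over all genes and rounded to whole reads. TMM factors set the library ratio at 1.11, and each fold is the ratio of normalized reads, Akt1/2 DKO to control, with a 95% exact (Clopper-Pearson) interval that covers counting error only. With 1 library in each group no test between conditions is possible, and a gene is called changed when the fold reaches 1.5 (0.58 on the log2 scale). AKT1 had 2645 reads in control and 591 in Akt1/2 DKO and AKT2 had 2362 and 667. Of the prostate epithelial markers, KRT8 and KRT18 were higher while HOXB13, KLK2 and KLK3 were lower, and FOXA1 held 2511 and 3289 reads. Summed reads of the fibroblast list were 138 and 153, but its 3 genes with at least 10 reads all changed, in both directions. COL3A1 was lower (74 and 9 reads), while COL1A1 (55 and 106) and LUM (5 and 35) were higher. Summed reads of the endothelial list were 1 and 2, and of the leukocyte list 51 and 69, with PTPRC at 1 and 0 and CD3E at 0 in both. The 754 chromosome 3 genes tested had a median log2 fold change of -0.54, with 352 lower and 66 higher, against 0.03 for all other genes.

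Of the 72 genes, 64 reached a sum of 10 reads over both libraries and were compared. DNAJB8 and HSPA6 had 1 to 9 reads, and DNAJC15, DNAJC5B, DNAJC5G, HSPB2, HSPB3 and HSPB7 had none. Of the 64, 19 (29.7%) changed at least 1.5-fold, against 30.9% of all 13318 genes compared. Higher in Akt1/2 DKO were 13, where 15.9% of all genes were higher, and lower were 6, where 15.0% were lower. Among the 56 members with at least 100 reads 15 changed, 9 higher and 6 lower, against 23.2% of all such genes. The median log2 fold change of the members was 0.02 and that of all genes 0.01. The family as a whole therefore stood near the background, and its differences were between single genes. In bulk RNA, fewer cells that express a gene and less of its RNA per cell cannot be told apart.

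A smaller share of the strongly expressed members changed, as was the case for all genes. Of 32 members with at least 1000 reads, 5 changed (15.6%, against 15.1% of all genes in that range), and of 24 with 100 or more but under 1000 reads, 10 changed (41.7%, against 29.9%). Of the 8 with 10 or more but under 100 reads, 4 changed (50%, against 66.5%). The 10 members with the highest FPKM in control, a level per transcript length and library size, held 79.8% of the FPKM of all members in control and 77.3% in Akt1/2 DKO, and 2 of these 10 changed, HSPB1 and HSPB6. All members together took 1.17% of the reads in control (95% exact interval 1.16 to 1.18) and 1.08% in Akt1/2 DKO (1.07 to 1.08). Across the 64 members, which share both libraries and are not replicates, the FPKM of the libraries had a Spearman correlation of 0.967. Chaperone levels in the libraries lie along the line of equal FPKM in the plot of levels.

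**Figure D1:**
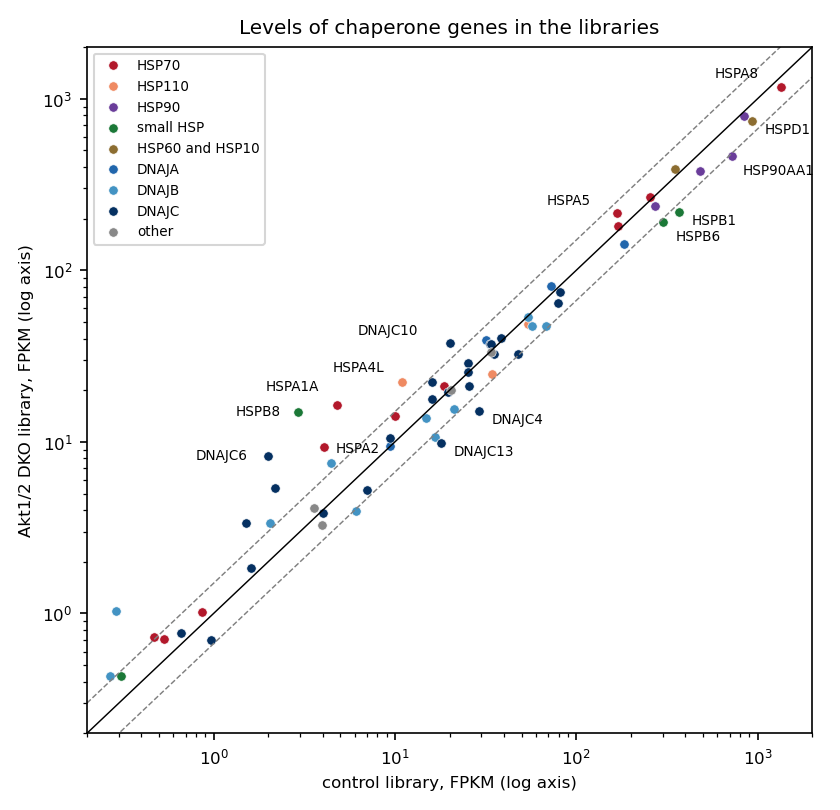
FPKM of 64 chaperone genes and 4 HSP90 companions in the control library (x, log axis) and the Akt1/2 DKO library (y, log axis), 1 point for each gene, coloured by class, with equal levels as a solid line and 1.5-fold as dashed lines. HSPA8 is the highest member in both libraries (1353 and 1174 FPKM), and the points far above the line, such as HSPB8 (2.92 and 15.0 FPKM) and DNAJC6 (2.00 and 8.29 FPKM), lie at low control levels.

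The promoters of 6 members whose results are set side by side below are shown, since heat shock factors bind inverted repeats of GAA. Each is the 250 bases before the start in RefSeq (GRCh38.p14), 5′ to 3′ on the gene's strand. Capitals mark matches to GAANNTTC, or to a longer element that contains it (GAANNTTC, then any 2 bases, then GAA), searched on both strands. HSPB1 lies at chr7:76302423-76302672 (plus strand), HSPB6 at chr19:35757030-35757279 (minus strand), HSPB8 at chr12:119178681-119178930 (plus strand), HSPA1A at chr6:31815293-31815542 (plus strand), HSPA1B at chr6:31827488-31827737 (plus strand) and HSPA8 at chr11:123062137-123062386 (minus strand).
HSPB1: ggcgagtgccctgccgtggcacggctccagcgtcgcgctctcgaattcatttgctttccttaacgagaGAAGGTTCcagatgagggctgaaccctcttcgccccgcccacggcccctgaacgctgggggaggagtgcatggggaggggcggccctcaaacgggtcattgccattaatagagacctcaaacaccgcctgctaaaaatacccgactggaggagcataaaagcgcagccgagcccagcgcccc
HSPB6: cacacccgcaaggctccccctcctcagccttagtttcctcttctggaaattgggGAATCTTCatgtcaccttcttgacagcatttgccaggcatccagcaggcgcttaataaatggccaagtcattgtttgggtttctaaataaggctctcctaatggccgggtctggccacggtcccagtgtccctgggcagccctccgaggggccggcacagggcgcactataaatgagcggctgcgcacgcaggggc
HSPB8: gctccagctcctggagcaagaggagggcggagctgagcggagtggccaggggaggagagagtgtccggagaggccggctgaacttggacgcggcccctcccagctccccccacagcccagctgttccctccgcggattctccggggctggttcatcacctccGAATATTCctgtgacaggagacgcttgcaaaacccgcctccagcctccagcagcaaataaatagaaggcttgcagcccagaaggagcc
HSPA1A: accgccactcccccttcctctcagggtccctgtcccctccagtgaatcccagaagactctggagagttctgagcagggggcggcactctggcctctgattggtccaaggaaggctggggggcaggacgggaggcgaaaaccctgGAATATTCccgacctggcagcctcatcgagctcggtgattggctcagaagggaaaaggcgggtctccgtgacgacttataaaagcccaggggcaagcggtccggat
HSPA1B: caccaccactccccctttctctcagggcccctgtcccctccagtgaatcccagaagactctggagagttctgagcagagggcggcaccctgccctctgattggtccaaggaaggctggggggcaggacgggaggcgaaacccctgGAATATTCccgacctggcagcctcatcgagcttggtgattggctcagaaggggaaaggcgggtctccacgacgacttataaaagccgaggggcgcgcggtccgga
HSPA8: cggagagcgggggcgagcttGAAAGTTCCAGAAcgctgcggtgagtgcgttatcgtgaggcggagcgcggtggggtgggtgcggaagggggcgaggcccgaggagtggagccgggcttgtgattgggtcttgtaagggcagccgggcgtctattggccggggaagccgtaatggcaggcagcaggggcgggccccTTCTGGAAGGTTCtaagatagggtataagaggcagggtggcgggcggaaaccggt

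RefSeq windows were found for 64 of the 72 members. GAANNTTC was in the windows of 14 of them (21.9%), against 7.05% of all 27305 genes with a window. The longer element was in 4 members (6.25%), DNAJB6, HSPD1, HSPA6 and HSPA8, against 0.557% of all genes. Of the 14, 4 were higher (HSPA1A, HSPA1L, HSPB8 and DNAJB7), 2 were lower (HSPB1 and HSPB6), 7 stayed under 1.5-fold and 1 had under 10 reads. Of all genes compared, 15.9% were higher and 15.0% lower. HSPA1L (12 and 20 reads) and DNAJB7 (7 and 12) had intervals that included no change, and the HSPA1A value depends on the division of reads with HSPA1B. So few genes cannot set promoters with a match apart. The match began 182 bases before the start in HSPB1, 196 in HSPB6, 88 in HSPB8, 106 in HSPA1A and 105 in HSPA1B, and HSPA8 had matches at 230 and 50. The windows of HSPA1A and HSPA1B had 94.4% equal bases at the best shift of up to 5 bases, without gaps. HSPA1L is transcribed the opposite way, and its window shares 241 of 250 bases with that of HSPA1A by position, the match among them. A match is a stretch of letters and not evidence of binding, and promoters with it stood on both sides of no change.

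Small HSPs moved in both directions. Of 7 genes 4 were compared, 1 higher and 2 lower (75%, against 30.9% of all genes), with a median log2 fold change of -0.14. The 3 with at least 100 reads all changed, where 23.2% of all such genes did, and their median was -0.71. So few genes cannot set the class apart. HSPB8, the partner of BAG3 in directing clients to autophagy (chr12:119178642-119221131), had 63 reads in control and 348 in Akt1/2 DKO, 4.98-fold higher (95% interval 3.80 to 6.62), the highest fold of all members compared. HSPB1, the actin-protecting HSP27 (chr7:76302544-76304295), had 3377 and 2139 reads, 1.75-fold lower (95% interval 1.66 to 1.85). HSPB6, known from smooth muscle as HSP20 (chr19:35754569-35758079), had 4346 and 2941 reads, 1.64-fold lower (95% interval 1.56 to 1.72). In FPKM HSPB8 stayed far below the other two in both libraries: it reached 15.0 in Akt1/2 DKO, where HSPB1 was at 218 and HSPB6 at 190. The summed FPKM of the class was 673 in control and 424 in Akt1/2 DKO. HSPB9 had 6 and 9 reads, and its interval on the log2 scale (-1.22 to 2.21) included no change. The related crystallins CRYAA and CRYAB, and ODF1, had 0 reads in both libraries. HSPB6 shared 39.8% of its 50-base stretches with 1 other gene model and HSPB1 11.4% with others, HSPB1P1 among them, so some of their reads could be counted elsewhere, while HSPB8 shared 0%.

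HSP70 genes changed in 3 of 11 compared (27.3%, against 30.9% of all genes), all higher, with a median log2 fold change of 0.30, and the 3 were weakly expressed. Of the 9 with at least 100 reads 2 changed, where 23.2% of all such genes did. HSPA8, the constitutive cytosolic HSP70 that also strips clathrin from vesicles (chr11:123057489-123063230), had 31308 reads in control and 29411 in Akt1/2 DKO, a log2 fold change of -0.24 (95% interval -0.26 to -0.22). It alone took 0.314% and 0.274% of all reads. HSPA2, a paralog best known from sperm development (chr14:64535905-64546173), had 113 and 280 reads, 2.23-fold higher (95% interval 1.79 to 2.81). HSPA1L, a testis paralog, had 12 and 20 reads, a log2 fold change of 0.59 at the threshold, and its interval (-0.51 to 1.75) included no change. The summed FPKM of the HSP70 class was 1988 in control and 1902 in Akt1/2 DKO.

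The stress-inducible HSP70 is made by neighbouring copies, HSPA1A (chr6:31815464-31817946) and HSPA1B (chr6:31827735-31830255), with near-equal coding sequence. HSPA1A had 119 reads in control and 438 in Akt1/2 DKO, 3.32-fold higher (95% interval 2.71 to 4.10). HSPA1B had 4325 and 4930 reads, a fold of 1.03 (95% interval 0.987 to 1.07). HSPA1A shared 72.6% of its 50-base stretches with HSPA1B, so the division of reads between the copies is uncertain. Together they had 4444 and 5368 reads, 1.09-fold, under the threshold. The share assigned to HSPA1A was 2.68% of the pair in control (95% exact interval 2.22 to 3.20) and 8.16% in Akt1/2 DKO (7.44 to 8.92). The part of read assignment in the HSPA1A value was not tested.

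The remaining HSP70 genes stayed under 1.5-fold. HSPA14, which works on the ribosome with DNAJC2, had 337 and 414 reads (log2 fold change 0.15), and DNAJC2 had 546 and 493 (-0.30). The distant relatives HSPA12A (50 and 63 reads) and HSPA12B (16 and 23 reads) had intervals that included no change. HSPA6, a strictly heat-induced gene, had 6 reads in control and 2 in Akt1/2 DKO, too few to compare. HSPA5, HSPA13 and HSPA9 are given with their compartments.

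HSP110 proteins, the nucleotide exchange factors of HSP70, went different ways. HSPA4L (chr4:127781821-127840733) had 363 reads in control and 810 in Akt1/2 DKO, 2.01-fold higher (95% interval 1.78 to 2.28). HSPA4 had 2061 and 1974 reads, a log2 fold change of -0.21 (95% interval -0.30 to -0.12). HSPH1, which is heat-induced, had 1225 and 914 reads and -0.57 (95% interval -0.70 to -0.45), just under the threshold. Their summed FPKM was 99.4 in control and 95.6 in Akt1/2 DKO. The genes for HSP60 and HSP10 stand head to head on chromosome 2, and their promoter windows share 104 of 250 bases. HSPD1 had 22196 and 19036 reads (log2 fold change -0.37, 95% interval -0.40 to -0.34), and HSPE1 had 2611 and 3023 reads (0.06, 95% interval -0.01 to 0.14). Both share reads with pseudogenes or each other, with 25.0% of the 50-base stretches of HSPD1 and 52.9% of those of HSPE1 found in other genes.

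HSP90 genes were all on the lower side, as were 6567 of all 13318 genes compared. Of the 4, 1 changed (25%, against 30.9% of all genes). All 4 had at least 100 reads, where 23.2% of all genes changed, so 4 genes are too few to set the class apart. HSP90AA1, the inducible cytosolic form, had 24466 reads in control and 16590 in Akt1/2 DKO, 1.64-fold lower (95% interval 1.60 to 1.67). HSP90AB1, the constitutive form, had 21717 and 21999 reads, a log2 fold change of -0.13 (95% interval -0.16 to -0.10). HSP90B1, the ER form (GRP94), had 13628 and 11625 reads (-0.38), and TRAP1, the mitochondrial form, had 5057 and 4787 (-0.23). In FPKM HSP90AA1 stood at 722 and 463 and HSP90AB1 at 841 and 792, so the constitutive form was the higher of the pair in both libraries, by a wider margin in Akt1/2 DKO. The class took 0.651% of all reads in control and 0.513% in Akt1/2 DKO, where HSP70 took 0.520% and 0.512%. HSP90AA1 shared 21.4% of its 50-base stretches with other genes, HSP90AA2P among them.

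**Figure D2:**
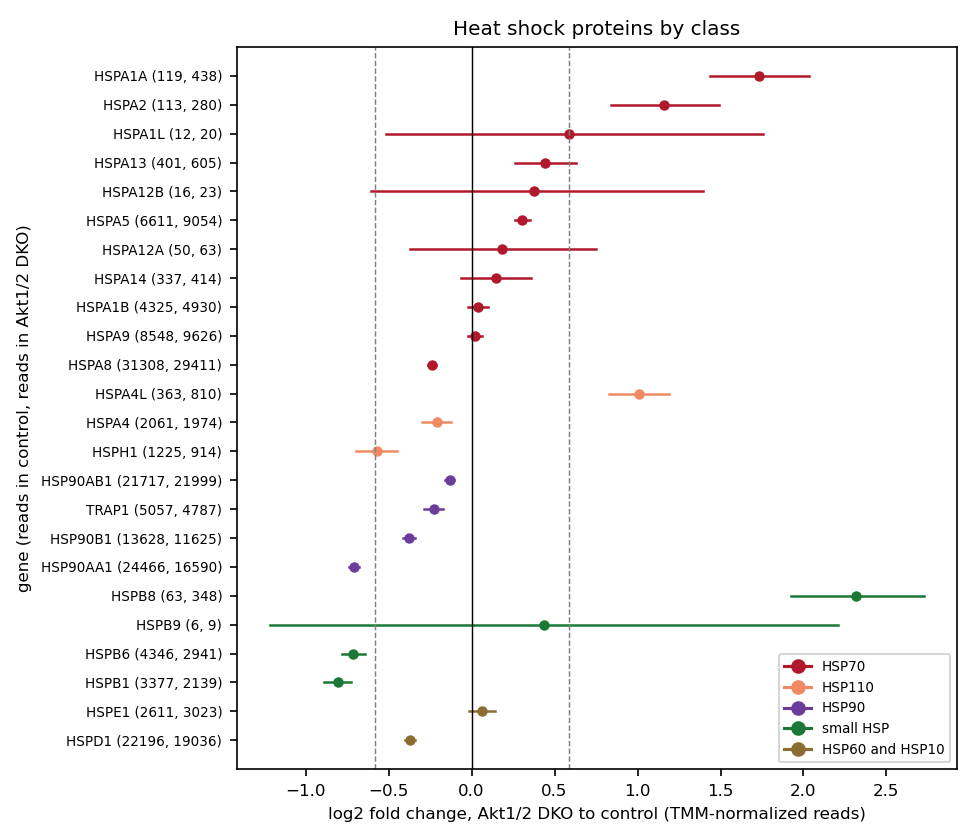
Log2 fold change (x, Akt1/2 DKO to control, TMM-normalized reads) of HSP70, HSP110, HSP90, small HSP, HSP60 and HSP10 genes with at least 10 reads, with 95% exact counting intervals as bars, the reads of each library beside the symbol and 1.5-fold as dashed lines. HSPB8 (2.32), HSPA1A (1.73), HSPA2 (1.16) and HSPA4L (1.01) lie to the right, and HSPB1 (-0.81), HSPB6 (-0.71) and HSP90AA1 (-0.71) to the left with narrow intervals.

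J-domain genes changed in 12 of 40 compared (30.0%, against 30.9% of all genes), 8 higher and 4 lower, with a median log2 fold change of -0.02. Of the 35 with at least 100 reads 9 changed, where 23.2% of all such genes did. The medians were -0.02 for DNAJA, 0.00 for DNAJB and -0.04 for DNAJC, values whose sign turns with the scaling of the libraries, which shifts all log2 folds by up to 0.05. None of 4 DNAJA genes, 6 of 11 DNAJB genes (54.5%) and 6 of 25 DNAJC genes (24.0%) changed. The summed FPKM of J-domain genes was 1116 in control and 1032 in Akt1/2 DKO, and its ratio to that of HSP70 was 0.561 and 0.543. The pool of J-domain transcripts beside HSP70 was thus close in the libraries.

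The J-domain genes with the highest mean FPKM stayed under 1.5-fold. DNAJA1, a cytosolic partner of HSPA8 and the highest of them (162 FPKM), had 4382 reads in control and 3632 in Akt1/2 DKO, a log2 fold change of -0.42 (95% interval -0.48 to -0.36). DNAJC7, which binds both HSP70 and HSP90 (78.0 FPKM), had 1452 and 1415 reads (-0.19). DNAJA3 of the mitochondria (77.1 FPKM) had 1928 and 2280 reads (0.09), and DNAJC8 of the splicing machinery (71.9 FPKM) had 1396 and 1225 (-0.34). DNAJB11 of the ER (57.8 FPKM) is given with its compartment. The stress-inducible DNAJB1 had 1226 and 1122 reads (-0.28), and DNAJB6, a suppressor of aggregation, 910 and 1033 (0.03). The other 9 J-domain genes under 1.5-fold outside the ER and mitochondria (DNAJA2, DNAJA4, DNAJC5, DNAJC9, DNAJC17, DNAJC21, DNAJC22, DNAJC27 and DNAJC28) lay between -0.26 (DNAJC28, 14 and 13 reads) and 0.27 (DNAJA2, 989 and 1325 reads).

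DNAJC6 (auxilin, chr1:65248219-65415869), which brings HSPA8 to clathrin coats, had 72 reads in control and 331 in Akt1/2 DKO, 4.15-fold higher (95% interval 3.21 to 5.43). GAK, the auxilin of most tissues and a companion outside the symbol rule, had 1070 and 1140 reads (log2 fold change -0.06). In FPKM DNAJC6 was at 2.00 and 8.29 and GAK at 43.2 and 43.3, so DNAJC6 stayed the lower of the pair. DNAJC24 (chr11:31369840-31431849), needed to make the diphthamide residue of elongation factor 2, had 44 and 116 reads, 2.38-fold higher (95% interval 1.67 to 3.45). DNAJB4, a cytosolic HSP40, had 56 and 102 reads, 1.64-fold higher (95% interval 1.17 to 2.32). Among genes with few reads, chosen for mention after their values were seen, DNAJC12 had 18 and 43 reads (2.15-fold higher, 95% interval 1.22 to 3.97), while DNAJB13 (4 and 11) and DNAJB7 (7 and 12) passed 1.5-fold with intervals that included no change.

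Lower in Akt1/2 DKO were DNAJC4, DNAJC13, DNAJB2 and DNAJB5. DNAJC4 (chr11:64230278-64234286), a little-studied member, had 356 reads in control and 202 in Akt1/2 DKO, 1.95-fold lower (95% interval 1.64 to 2.33). It shares exon sequence with NUDT22 on the same strand, with 20.0% of its 50-base stretches in common. DNAJC13 (chr3:132417526-132539032), which acts with HSPA8 in endosome sorting, had 1393 and 817 reads, 1.89-fold lower (95% interval 1.73 to 2.06). DNAJB2, an HSP40 that binds ubiquitin chains, had 394 and 273 reads, 1.60-fold lower (95% interval 1.37 to 1.87). DNAJB5 had 147 and 104 reads, 1.57-fold lower (95% interval 1.21 to 2.03). These 4 had 0% shared stretches except DNAJC4, and each interval lay wholly on the lower side.

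**Figure D3:**
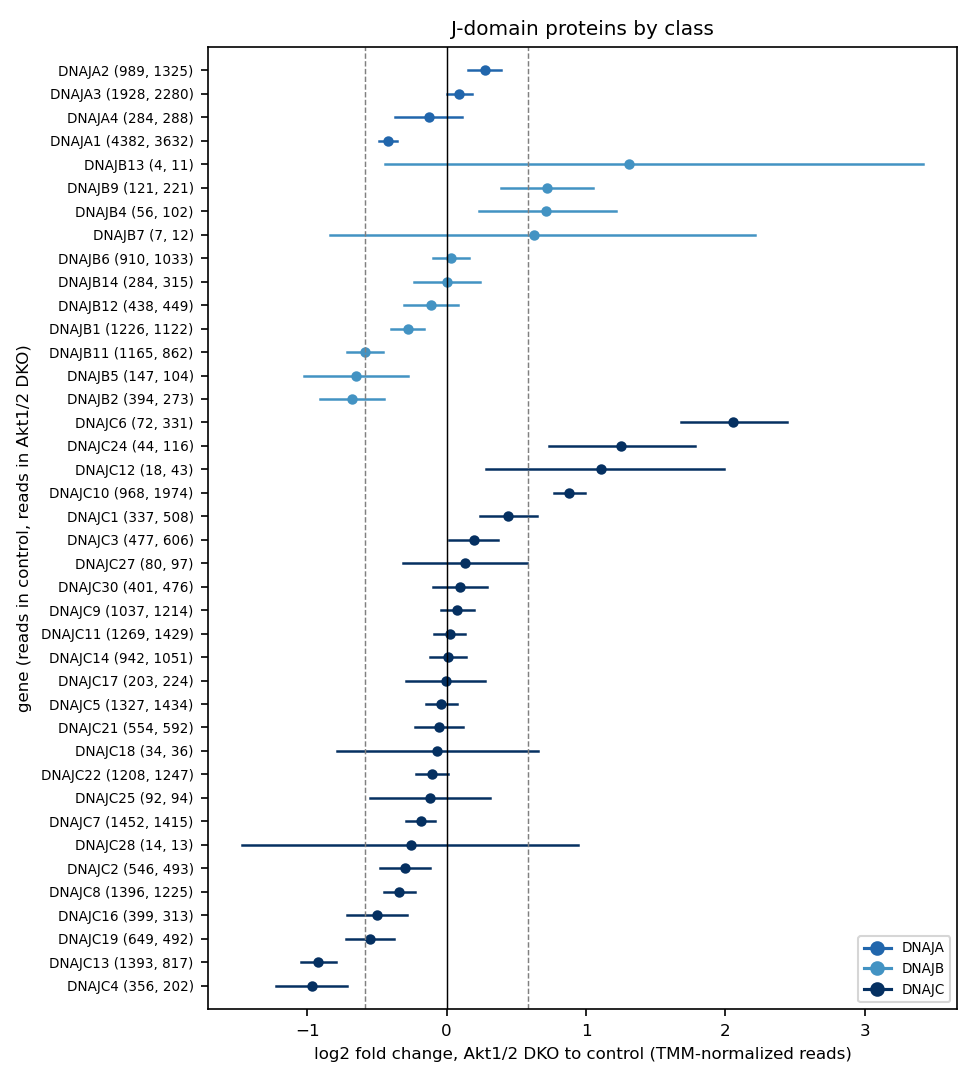
Log2 fold change (x, Akt1/2 DKO to control, TMM-normalized reads) of the 40 J-domain genes with at least 10 reads, by class, with 95% exact counting intervals as bars, the reads of each library beside the symbol and 1.5-fold as dashed lines. DNAJC6 (2.05) lies farthest to the right and DNAJC4 (-0.97) and DNAJC13 (-0.92) farthest to the left, while DNAJB13 (4 and 11 reads) has the widest interval of those past the right-hand line.

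Members of the ER changed in 2 of 13 compared (15.4%, against 30.9% of all genes), both higher, with a median log2 fold change of 0.01. Of the 12 with at least 100 reads 2 changed, where 23.2% of all such genes did. HSPA5 (BiP, chr9:125234853-125241330), the HSP70 of the ER and the sensor of unfolded protein, had 6611 reads in control and 9054 in Akt1/2 DKO, a log2 fold change of 0.30 (95% interval 0.26 to 0.35), under the threshold. DNAJC10 (ERdj5, chr2:182716041-182794464), which reduces disulfides for degradation, had 968 and 1974 reads, 1.84-fold higher (95% interval 1.70 to 1.99). DNAJB9 (ERdj4, chr7:108569568-108574850), a target of XBP1, had 121 and 221 reads, 1.65-fold higher (95% interval 1.31 to 2.07). The 250 bases before the HSPA5 start (chr9:125241344-125241593, minus strand, GRCh38.p14) are shown because they hold the ER stress element, CCAAT and CCACG with 9 bases between them, in capitals, 66 bases before the start. That element was in no other member's window and in 0.0916% of all genes. The window of the companion HSP90B1 held it at 194 and at 89 bases before the start, and HSP90B1 had a log2 fold change of -0.38, so the genes with the element lay on both sides of no change.
HSPA5: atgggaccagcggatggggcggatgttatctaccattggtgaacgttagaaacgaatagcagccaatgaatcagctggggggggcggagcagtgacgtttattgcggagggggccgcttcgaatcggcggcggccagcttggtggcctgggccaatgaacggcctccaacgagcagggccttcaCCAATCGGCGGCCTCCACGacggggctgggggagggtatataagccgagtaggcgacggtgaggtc

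Among the other members of the ER lumen, HSPA13 had 401 reads in control and 605 in Akt1/2 DKO (log2 fold change 0.44), DNAJC1 had 337 and 508 (0.44), and DNAJC3, which restrains the kinase PERK, had 477 and 606 (0.20). DNAJB11 (ERdj3), which presents unfolded proteins to BiP, had 1165 and 862 reads and -0.58 (95% interval -0.71 to -0.46), and DNAJC16 had 399 and 313 reads (-0.50). DNAJB11 lies on chromosome 3. The lumenal members were set apart after the values were seen. Of these 9, 6 lay above 0, BiP and HSPA13 among them, and 3 lay below, all of them J-domain genes (DNAJB11, DNAJC16 and DNAJC25). The 4 ER members whose J domain faces the cytosol (DNAJB12, DNAJB14, DNAJC14 and DNAJC18) lay between -0.11 and 0.01. The companions HYOU1, an ER HSP110, and SEC63, the J-domain subunit of the translocon, had log2 fold changes of -0.08 and -0.30.

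Of 27 genes listed for ER stress and folding and found in the table, 6 were higher and 1 lower (25.9%, against 30.9% of all genes), with a median of 0.13. Of the 26 with at least 100 reads 7 changed, where 23.2% of all such genes did. XBP1, the spliced transcription factor of the unfolded protein response, had 958 reads in control and 2010 in Akt1/2 DKO, 1.89-fold higher (95% interval 1.75 to 2.05). DDIT3 (CHOP) had 359 and 654 reads, and PPP1R15A, which restores translation, had 341 and 745. HERPUD1, DERL3 and TRIB3 were also higher, by 1.65-fold, 2.09-fold and 1.72-fold. ATF4 had 7815 and 9944 reads (log2 fold change 0.20) and ATF6 427 and 686 (0.54), both under the threshold. P4HB, an abundant disulfide isomerase, was lower, with 7886 and 5449 reads (1.60-fold), and PDIA4 (-0.49), CALR (-0.37) and PDIA3 (-0.36) had values of the same sign under the threshold. The 6 higher genes encode regulators of the response (XBP1, DDIT3, PPP1R15A and TRIB3) or parts of ER-associated degradation (HERPUD1 and DERL3). Other listed genes of the degradation pathway stayed under 1.5-fold on both sides of no change. DERL1 and EDEM1 had -0.29 and -0.17, and SYVN1, DERL2 and SEL1L had 0.35, 0.20 and 0.09.

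Members listed for the mitochondria stayed under 1.5-fold in all 7 compared, with a median log2 fold change of 0.02. All 7 had at least 100 reads, where 23.2% of all genes changed, so 7 genes are too few to set the list apart. HSPA9, the matrix HSP70 that pulls proteins through the inner membrane, had 8548 reads in control and 9626 in Akt1/2 DKO (0.02, 95% interval -0.02 to 0.06). DNAJC19, the J-domain subunit of that import motor, had 649 and 492 reads (-0.55, 95% interval -0.72 to -0.38), and it lies on chromosome 3. Its paralog DNAJC15 had 0 reads in both libraries. DNAJC11 of the cristae complex had 1269 and 1429 reads (0.02), and DNAJC30, a partner of ATP synthase, 401 and 476 (0.10). The companion HSCB, which loads iron-sulfur clusters, had 60 and 138 reads, 2.07-fold higher (95% interval 1.52 to 2.86), with 25.0% of its 50-base stretches in other genes, CHEK2 among them.

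**Figure D4:**
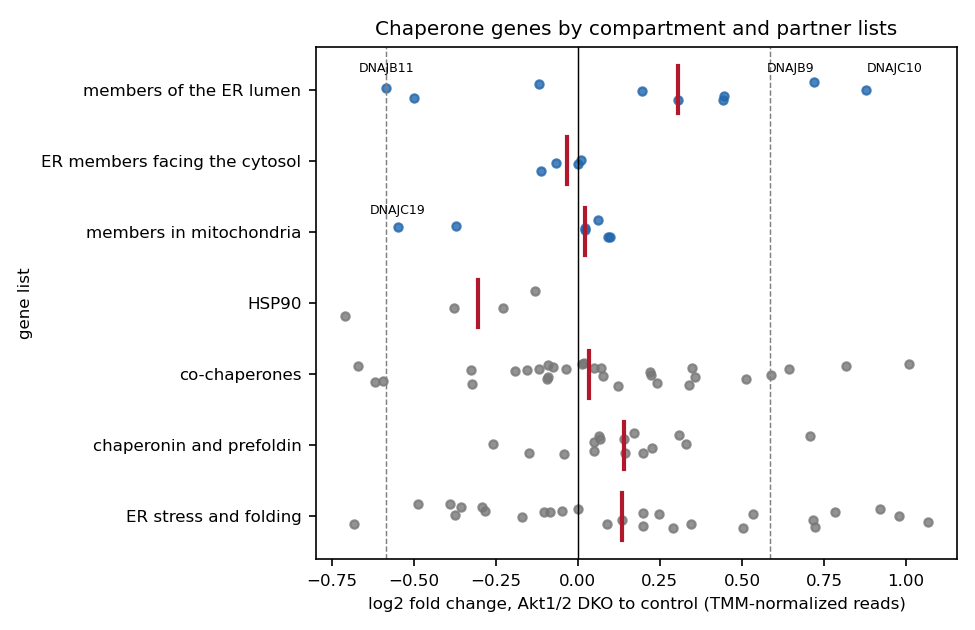
Log2 fold change (x, Akt1/2 DKO to control, TMM-normalized reads) of members by compartment (blue) and of HSP90, co-chaperone, chaperonin and ER stress lists (grey), 1 point for each gene with vertical scatter for visibility only, medians as red bars and 1.5-fold as dashed lines. Members of the ER lumen, a division made after the values were seen, spread from -0.58 to 0.88 around a median of 0.30. All 13 ER members had a median of 0.01, and the 16 listed ER genes with companions -0.03. The mitochondrial members lie between -0.55 and 0.10 with none past a dashed line, where 23.2% of all genes with at least 100 reads changed.

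Members on chromosome 3 all lay below 0 where compared. Of 5, 4 were compared, and their median log2 fold change was -0.57, where all 754 chromosome 3 genes had -0.54. DNAJC13 (-0.92, 95% interval -1.04 to -0.79) was below the chromosome median and was the only one of the 4 past 1.5-fold. Its interval covers counting error and not the spread of chromosome 3 genes around that median, so it cannot set DNAJC13 apart from them. DNAJB11 (-0.58) and DNAJC19 (-0.55) stood close to the median, and HSPBAP1, a binding partner of HSPB1, had 78 and 69 reads (-0.33). So 1 of these 4 changed, where 55.4% of all chromosome 3 genes did. Off chromosome 3, 18 of 60 members changed (30.0%, against 29.4% of all genes off it), and their median was 0.03, as for all genes off that chromosome. The part of chromosome 3 in the values of the members on it was not tested.

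Of the heat shock factors, HSF1, the main activator of cytosolic chaperone genes, had 783 reads in control and 541 in Akt1/2 DKO, 1.60-fold lower (95% interval 1.44 to 1.79), but -0.51 on the log2 scale and under the threshold in the deposited FPKM. HSF2 had 204 and 278 reads (log2 fold change 0.30) and HSF4 had 88 and 62 (1.57-fold lower, 95% interval 1.12 to 2.21). Of 16 heat-induced genes listed as HSF1 targets and compared, 3 were higher (HSPA1A, HSPA4L and BAG3), 2 were lower (HSP90AA1 and HSPB1), and the median was -0.14. All 16 had at least 100 reads, and 31.2% changed, where 23.2% of all such genes and 30.9% of all genes did. BAG3 stood at the threshold and lost its call with other scalings, and the HSPA1A value depends on the division of reads with HSPA1B. Of these 5, HSP90AA1 and HSPB1 had the higher FPKM. Of 8 early response genes that react to handling of cells, DUSP1 (53 and 333 reads) and ATF3 (143 and 586) were higher and EGR1 (571 and 167) was lower. That is 37.5% of the list, where 30.9% of all genes changed. FOS, FOSB, JUN, IER2 and JUNB stayed under 1.5-fold, between -0.56 (FOS) and 0.57 (JUNB). The part of the early response genes in the chaperone values was not tested.

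Of 30 co-chaperones compared, 4 were higher and 3 lower (23.3%, against 30.9% of all genes), with a median log2 fold change of 0.03. All 30 had at least 100 reads, where 23.2% of all genes changed. The BAG proteins release clients from HSP70. BAG1 had 1367 reads in control and 3053 in Akt1/2 DKO, 2.01-fold higher (95% interval 1.89 to 2.15), BAG6 had 2289 and 3968 reads (1.56-fold), and BAG3, the partner of HSPB8, had 370 and 617 reads (log2 fold change 0.59, 95% interval 0.40 to 0.78). The call of BAG3 was lost with DESeq2 size factors (0.58), with TMM computed without chromosome 3 genes (0.57) and with deposited FPKM (0.54). SGTB was also higher, with 42 and 82 reads. Lower were the immunophilins FKBP5, an HSP90 partner of steroid receptors and a known androgen-induced gene, with 3554 and 2608 reads (1.51-fold), and FKBP8, with 2867 and 1999 reads (1.59-fold). AHSA2, related to an activator of HSP90, had 611 and 441 reads (1.54-fold lower). With total count and upper-quartile scaling FKBP5 (-0.55 and -0.54) and AHSA2 (both -0.57) were under the threshold, as FKBP5 was with deposited FPKM (-0.56). The core of the HSP90 cycle stayed under 1.5-fold, with STIP1 at -0.09, CDC37 at -0.19, AHSA1 at 0.02 and PTGES3 at 0.35. In the chaperonin TRiC and prefoldin, which fold actin and tubulin, 12 of 15 genes lay above 0 with a median of 0.14, and PFDN4 alone changed, with 154 and 279 reads (1.63-fold higher).

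The readthrough gene DNAJC25-GNG10 had 52 reads in control and 65 in Akt1/2 DKO (log2 fold change 0.17), and DNAJC25 itself had 92 and 94 (-0.12). They share exon bases on the same strand. Of the genes that only carry a matching symbol, HSPBP1, an exchange factor of HSP70, had 546 and 567 reads (-0.09), and HSPB11, a part of the transport machinery of cilia, had 182 and 194 (-0.06). None of them changed, so the count of 19 is the same without them.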

How the data were processed

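RNA was sequenced from 1 control and 1 Akt1/2 DKO library. For each gene the authors deposited an estimated count without normalization, beside the FPKM of their own pipeline. The submitters' processing notes name fastp 0.20.0, TopHat, Cufflinks, edgeR and GRCh38.p10. The tool that gave the counts and the strandedness are not given in the sources used here, so reads of overlapping genes on opposite strands cannot be told apart. The deposited comparison (log2 fold change, p-value, FDR and mark of change), its ontology summary and the correlation of the libraries were not used.

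Counts were rounded, and 2173 genes had a fractional estimate, 15 of them members. Genes whose reads summed to 10 or more over both libraries were scaled by TMM (edgeR 4.0.16, R 4.3.3). Exact 95% intervals (scipy 1.17.1, Python 3.11.15) condition on the summed reads, and 3 reads, the floor, are 0.301 and 0.280 CPM. The steps were tested on simulated data. Positions, exons and transcripts for the search of shared 50-base stretches came from GENCODE release 29 (GRCh38), where 19571 of 19607 identifiers were found. The bases after each start in the RefSeq windows were left out.

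Named are all measured HSP70, HSP110, HSP90, small HSP, HSP60 and HSP10 genes, J-domain genes with at least 100 reads changed 1.5-fold, the 5 with the highest mean FPKM, those of the ER, mitochondria or chromosome 3, and listed context genes changed 1.5-fold with at least 100 reads, with HSF1, HSF2, ATF4, XBP1, ATF6, DDIT3, AKT1 and AKT2. Others were named after their values were seen, as was the division of ER members into lumenal and cytosolic. The members and lists were chosen with earlier results of these data known. Some listed genes are not reported here. Alternatives were other scalings, deposited FPKM, other read filters, a prior count of 1, a 2-fold threshold, an interval criterion and smaller sets of members.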

Additional observations from a re-analysis of the deposited data

How the results depend on the processing

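With a 2-fold threshold 8 of 64 members changed, 8 higher and 0 lower, and 2390 of all 13318 genes compared. The split of all genes by direction at 2-fold is not given here, so the split of the members has no background beside it. A filter of at least 100 reads left 2546 changed genes in all. Under every other alternative run, 15 to 20 members changed, and their median log2 fold change lay between -0.01 and 0.08, so its sign depends on the scaling. Asking for 1.5-fold and an interval past no change left 16 of 64 members, 10 higher and 6 lower, with no share of all genes given beside it. DNAJB11 passed 1.5-fold with DESeq2 size factors and with TMM computed without chromosome 3 genes, which also brought HSPH1 past it. HSPA1L fell under it with those scalings and with a prior count of 1, as DNAJB7 did with the prior count. No value of a named gene changed from a call in one direction to the other. The calls of BAG3, FKBP5 and AHSA2 were lost under at least 2 alternatives each. With deposited FPKM the log2 fold change of DNAJB14 was -0.45 and that of HSF1 was -0.51, under the threshold, and the cause was not tested. No paired analysis was possible because 1 library stands for each group. Depth limits genes under 100 reads, and the copies HSPA1A and HSPA1B cannot be separated with certainty. Variation between cultures is unknown.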
